A study of Homo sapiens with 4 samples.

Results

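Small nucleolar RNAs (snoRNAs) and small Cajal body RNAs (scaRNAs) were followed in VCaP cells after transfection with an siRNA against ZBTB7A. The genes were taken by name and by depth: their GENCODE symbols start with SNORA, SNORD or SCARNA, and their reads on the main strand summed to 20 or more over the 4 count tables. The members were thus chosen by name and by measured read sums over both groups, and this set of genes was proposed with earlier results of these data known. This gave 62 of the 60308 genes listed in each table, with 34 of the H/ACA class (symbols in SNORA), 21 of the C/D class (SNORD) and 7 Cajal body RNAs (SCARNA). By name alone there were 386 such genes and 174 of them had any read. At the limit, SNORA22, SNORA33, SNORD116-14 and SNORD116-27 were just inside with 20 reads each, and SNORD69 with 19 and SNORA22B and SNORA2B with 17 each were just outside. A further 64 genes of these names in GENCODE 29, SNORA73A among them, had identifiers that did not match the tables and were not analysed here.

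VCaP, a line from human prostate cancer, has the TMPRSS2-ERG gene fusion. Both groups were VCaP cells grown in medium with serum, 1 transfected with a non-targeting control siRNA (siNTC) and 1 with an siRNA against ZBTB7A (siZBTB7A), a zinc finger transcriptional repressor. No source used here gives the time from transfection to harvest. The comparison asks which genes respond to lower ZBTB7A. RNA was extracted on columns and sequenced with a stranded total RNA kit, and each group had 2 count tables.

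Main-strand gene reads ranged from 5556061 to 5927656 per table. Within a group the 2 tables agreed within sampling noise, over all genes (chi-square test, p = 0.722 for siNTC and 0.659 for siZBTB7A) and over the 62 members alone (p = 0.269 and 0.278). They were therefore counted as 1 library per group. All p-values below compare these 2 libraries by the spread between tables, not the 2 conditions, and there is no replicate check. The same limit holds for each standard error (SE), which was worked back from the log2 change and the statistic of the test described below. The targeted gene, ZBTB7A, had 90 and 115 reads with siNTC and 70 and 74 with siZBTB7A. That is 17.4 and 12.9 CPM (reads per 1000000 scaled gene reads), a fold of 0.743 (0.597 to 0.924) and an adjusted p of 0.0969. Throughout, a fold is siZBTB7A over siNTC from the summed tables, and the values in parentheses are its exact 95% interval, which covers counting error only. A gene is called lower or higher where edgeR's quasi-likelihood test over 12848 genes gave a Benjamini-Hochberg adjusted p under 0.05. That test called 639 genes (4.97% of those tested), 289 higher and 350 lower; scaling by plain gene-read totals gave 171 higher and 579 lower. Of 6 prostate markers, all were tested, HOXB13 and FOLH1 were higher (folds 1.08 and 1.16), and the 4 matched markers of other cell types (PTPRC, VIM, COL1A1, COL1A2) had 9 reads in siNTC and 16 in siZBTB7A in all.

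Most snoRNAs are cut out of the introns of host genes and work as RNA-protein particles in the nucleolus. Box C/D RNAs, bound by fibrillarin (FBL), place methyl groups on ribosomal RNA, and box H/ACA RNAs, bound by dyskerin (DKC1), direct the change of uridine to pseudouridine. A few, such as U3 (SNORD3A), U17 (SNORA73A and SNORA73B) and U13 (SNORD13), act in the processing or acetylation of ribosomal RNA, and scaRNAs guide the same modifications on spliceosomal RNAs in Cajal bodies.

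The sequences below are those the results turn on, shown 5′ to 3′ as annotated in GENCODE 29 (build GRCh38), with the boxes that define each class in capitals: ACA near the 3′ end, or TGATGA (box C) and CTGA near the 3′ end (box D). First come the 3 snoRNAs with the most reads.
SNORA73B: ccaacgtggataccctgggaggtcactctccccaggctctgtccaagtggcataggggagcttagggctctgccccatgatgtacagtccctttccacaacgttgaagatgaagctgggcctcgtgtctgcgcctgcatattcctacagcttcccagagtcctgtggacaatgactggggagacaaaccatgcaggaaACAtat
SNORD3A: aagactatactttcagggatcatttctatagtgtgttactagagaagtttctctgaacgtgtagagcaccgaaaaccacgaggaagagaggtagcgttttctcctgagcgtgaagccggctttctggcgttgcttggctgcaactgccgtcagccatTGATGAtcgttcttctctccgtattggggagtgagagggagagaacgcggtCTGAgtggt
SNORD17: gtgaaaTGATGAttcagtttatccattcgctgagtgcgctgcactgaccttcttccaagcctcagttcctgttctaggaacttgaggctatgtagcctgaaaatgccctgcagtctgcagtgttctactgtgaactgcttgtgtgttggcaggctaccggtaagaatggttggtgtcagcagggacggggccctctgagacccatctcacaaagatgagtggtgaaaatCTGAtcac
The next 3 are Cajal body RNAs. SCARNA5 and SCARNA6 lie in the same host gene and both fell, and SCARNA13, which has tandem H/ACA domains, had the most reads of its class and did not change beyond counting error.
SCARNA5: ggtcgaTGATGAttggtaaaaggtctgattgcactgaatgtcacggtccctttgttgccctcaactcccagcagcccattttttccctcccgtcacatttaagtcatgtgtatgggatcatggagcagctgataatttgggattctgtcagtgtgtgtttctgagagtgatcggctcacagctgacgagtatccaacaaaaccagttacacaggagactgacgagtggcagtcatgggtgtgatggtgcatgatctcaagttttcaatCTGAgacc
SCARNA6: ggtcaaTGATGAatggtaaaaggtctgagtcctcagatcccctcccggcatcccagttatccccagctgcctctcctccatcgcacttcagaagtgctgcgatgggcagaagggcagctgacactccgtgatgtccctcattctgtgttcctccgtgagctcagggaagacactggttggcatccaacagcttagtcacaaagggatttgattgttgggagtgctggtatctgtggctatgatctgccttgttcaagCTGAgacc
SCARNA13: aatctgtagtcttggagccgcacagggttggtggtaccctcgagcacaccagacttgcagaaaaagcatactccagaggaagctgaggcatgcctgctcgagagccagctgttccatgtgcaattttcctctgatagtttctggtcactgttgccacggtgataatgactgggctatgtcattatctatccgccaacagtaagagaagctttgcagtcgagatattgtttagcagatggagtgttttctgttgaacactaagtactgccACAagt
Copies of the SNORA71 family, which share a host gene, show how near family members are to each other.
SNORA71A: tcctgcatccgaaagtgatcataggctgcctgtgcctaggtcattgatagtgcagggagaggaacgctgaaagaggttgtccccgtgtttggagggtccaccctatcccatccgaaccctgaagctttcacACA
SNORA71C: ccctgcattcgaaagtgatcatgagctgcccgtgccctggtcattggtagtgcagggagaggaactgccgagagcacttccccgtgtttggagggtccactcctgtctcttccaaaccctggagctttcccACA
SNORA71D: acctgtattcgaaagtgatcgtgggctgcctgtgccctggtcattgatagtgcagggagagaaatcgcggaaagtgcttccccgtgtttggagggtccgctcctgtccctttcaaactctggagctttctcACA
SNORA23 and SNORA84 had the lowest folds among members with 100 reads or more that were called, and SNORD104, a short C/D RNA, had the highest fold of that depth.
SNORA23: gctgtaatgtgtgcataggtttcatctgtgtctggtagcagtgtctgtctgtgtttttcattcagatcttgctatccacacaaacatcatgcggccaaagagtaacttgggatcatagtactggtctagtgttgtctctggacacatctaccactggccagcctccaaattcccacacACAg
SNORA84: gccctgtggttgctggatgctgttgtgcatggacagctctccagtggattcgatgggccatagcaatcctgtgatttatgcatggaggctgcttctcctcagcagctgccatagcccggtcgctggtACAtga
SNORD104: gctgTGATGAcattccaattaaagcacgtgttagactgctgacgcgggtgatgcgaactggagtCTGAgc

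The boxes were searched on the RNA's own strand only. An ACA within the last 8 bases was found in 32 of the 34 H/ACA members, against 89.9% of all SNORA transcripts in GENCODE 29. TGATGA was found in 20 of the 21 C/D members (77.4% of 288 SNORD transcripts) and CTGA within the last 12 bases in 19 of them (86.8%). Of the 7 Cajal body RNAs, 4 held TGATGA and the end CTGA (SCARNA5, SCARNA6, SCARNA7 and SCARNA9) and 3 the end ACA, SCARNA13 and SCARNA21 among them. The class names therefore matched the box letters for nearly all members. SCARNA9 is listed as an antisense gene in GENCODE 29 and was taken by its symbol.

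Summed over the 62 genes, snoRNA and scaRNA reads were lower in the siZBTB7A library. They came to 1924 and 1950 CPM with siNTC and to 1534 and 1503 CPM with siZBTB7A, a fold of 0.784 (0.7684 to 0.7997), and the groups did not overlap. This was 0.196% of gene reads in siNTC and 0.150% in siZBTB7A. In bulk RNA, fewer cells with these RNAs and less of them per cell cannot be told apart. Reads of unspliced host RNA over an intronic member can also fall in its count. The counted reads therefore need not all come from mature small RNAs, and the share of host reads was not tested. SNORA73B alone supplied 41.8% of the members' reads, and without it the summed fold was 0.845 (0.823 to 0.867).

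Counted gene by gene, 47 of the 62 members passed the filter on low counts and were tested, and of these 11 were lower and none higher in edgeR's test, where 2.72% of all tested genes were lower and 2.25% higher. At an unadjusted p under 0.05 there were 18 lower and 1 higher, and the share of all genes at that limit is not given here. DESeq2 gave an adjusted p to 4 members, of which 3 were lower and none higher, and limma-voom called 11 lower and none higher. Over all 62 members, tested or not, 39 folds were below 1 and 23 above (50.0% of the 14149 genes with 20 reads or more were below 1). The median fold was 0.861 (log2 -0.22), against a log2 fold of 0.0002 for those 14149 genes. The interval lay wholly below 1 for 17 members (7.93% of genes with 20 reads or more) and wholly above 1 for 1 member, SCARNA9 (8.02%). Both siZBTB7A tables were below both siNTC tables for 23 members (22.9% of genes), above for 9 (23.2%) and overlapping for 30.

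The 31 members with 100 reads or more were all tested and held 10 of the 11 calls. Of these 31, 23 had a fold below 1 (49.6% of 10893 genes of that depth), 13 a fold under 0.8 (3.97%) and 13 an interval wholly below 1 (9.23%), against 1 wholly above (9.28%). Both siZBTB7A tables were below both siNTC tables for 14 of them (23.6%). The 31 members with fewer reads held the remaining call, SNORD13, and 15 of them were not tested.

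**Figure D1:**
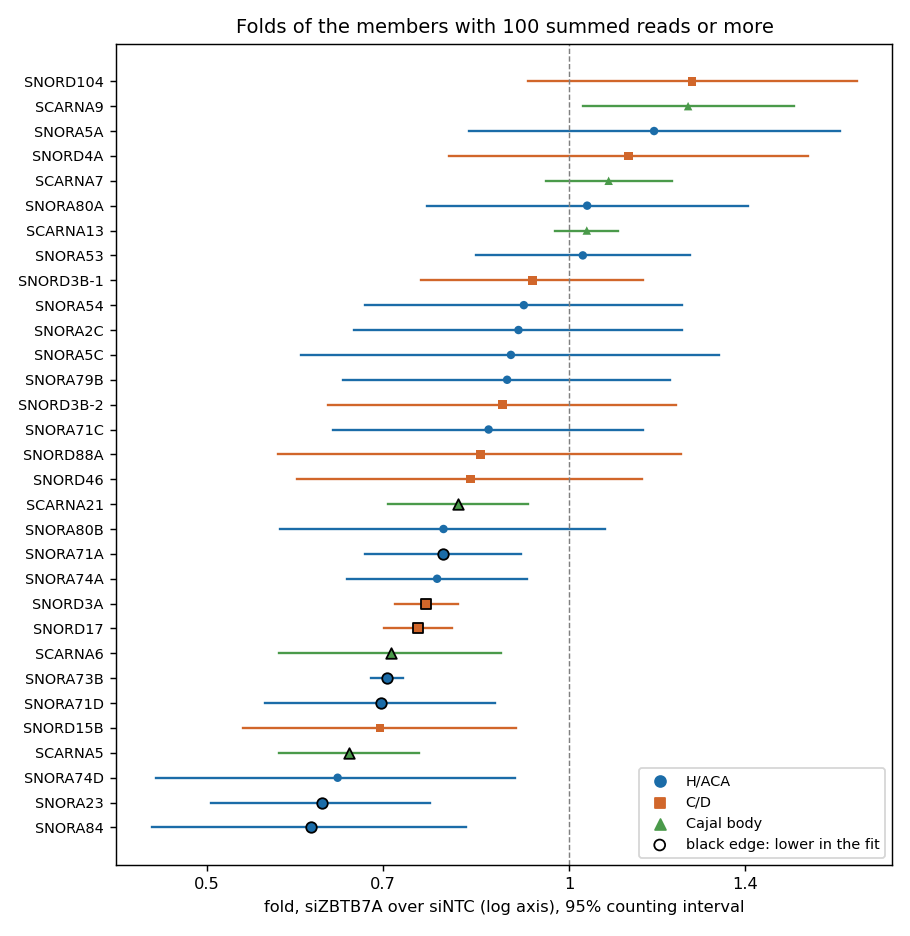
Fold (siZBTB7A over siNTC, log axis) of the 31 snoRNA and scaRNA genes with 100 summed reads or more. Points are folds from the summed tables, bars are exact 95% counting intervals, colour and shape give the class, and a black edge marks genes called lower; 23 of the 31 points lie left of 1 and the 8 to the right include 3 of the Cajal body RNAs.

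Other measures moved with this result. Reads that met no annotated exon were 20.6% of all reads in siNTC and 23.2% in siZBTB7A, and reads mapping to several places were 24.4% and 22.2%. Of 6 tested small RNAs of other classes, 3 were also lower: RMRP, the RNA of RNase MRP, with 7086 CPM in siNTC and 5820 in siZBTB7A (fold 0.821, 0.813 to 0.830, adjusted p = 0.0325), and the U4 spliceosomal RNA genes RNU4-1 (0.695, 0.614 to 0.786, adjusted p = 5.80e-06) and RNU4-2 (0.721, 0.642 to 0.809, adjusted p = 1.55e-05). Among all tested genes, 2.72% were lower. RNU5A-1 (0.635, 0.333 to 1.177) and RNU5B-1 (0.962, 0.498 to 1.848) were tested and not called. TERC, the telomerase RNA, is an H/ACA RNA outside the symbol rule, and its fold was 0.987 (0.915 to 1.065, adjusted p = 0.905). Their part in the lower snoRNA counts was not tested.

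H/ACA RNAs were the largest class. Their summed level was 1081 and 1089 CPM in siNTC and 801 and 780 CPM in siZBTB7A, a fold of 0.728 (0.708 to 0.748). Of 26 tested members, 5 were lower (SNORA73B, SNORA71A, SNORA71D, SNORA23 and SNORA84) and none higher, and the median fold of all 34 was 0.805. SNORA73B gave 76.9% of the class's reads. Without it the summed fold was 0.806 (0.762 to 0.853).

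SNORA73B (ENSG00000200087, chromosome 1, inside an intron of SNHG3) is a U17 RNA, needed for the early cuts that free 18S ribosomal RNA. It had 843 and 848 CPM in the siNTC tables and 603 and 590 CPM in the siZBTB7A tables. Both siZBTB7A tables lay below both siNTC tables. The fold was 0.705 (0.684 to 0.728), a log2 change of -0.50 ± 0.02 (SE, adjusted p = 2.92e-39). It ranked 5 of all tested genes by p and had the second-lowest fold among the 4067 genes with 1000 reads or more, after RNU4-1. Its count per length was the highest among the members, at 3534 CPM per kb over both groups, and SNORD3A came next at 863 CPM per kb. The SNORD3A value divides all reads of a gene that spans 699 bases by the 217 bases of its RNA. As RNAs of different length are not recovered alike, the order per length is one of counts and not of amounts in the cell. The other U17 gene, SNORA73A, differs from it at 14 positions in alignment (93.2% identity) and was not analysed here.

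The SNORA71 genes, which guide pseudouridine formation in 18S ribosomal RNA, lie together on chromosome 20 in SNHG17. SNORA71A had 34.4 and 37.0 CPM in siNTC and 28.6 and 27.5 CPM in siZBTB7A, with no overlap, a fold of 0.785 (0.676 to 0.911) and an adjusted p of 0.0332. SNORA71D had 18.4 and 17.3 CPM against 12.2 and 12.7 CPM, also without overlap (fold 0.697, 0.559 to 0.868, adjusted p = 0.0296). SNORA71C, at 7.92 and 9.83 CPM against 8.02 and 7.23 CPM, overlapped and was not called (fold 0.857, 0.636 to 1.151). SNORA71B had 31 reads in siNTC and 20 in siZBTB7A and was not called. The 3 printed copies are 82.8% to 86.6% identical, and the 4 genes summed gave a fold of 0.767 (0.686 to 0.856). The calls of SNORA71A and SNORA71D were each lost when any 1 of the 4 tables was left out, with adjusted p up to 0.255 and 0.186.

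SNORA23 (chromosome 11, in IPO7), a guide for 28S ribosomal RNA, had 22.2 and 20.1 CPM in siNTC and 13.9 and 12.5 CPM in siZBTB7A. Its fold was 0.622 (0.504 to 0.766), a log2 change of -0.68 ± 0.15 (SE, adjusted p = 0.000763). SNORA84 (chromosome 9, in IARS) had 11.4 and 9.83 CPM against 6.56 and 6.35 CPM, a fold of 0.610 (0.450 to 0.821, adjusted p = 0.0256). Neither gene's groups overlapped. SNORA84 shares exon bases with MIR3651 in GENCODE 29, and its call was lost without siNTC replicate 1 (adjusted p = 0.216), siZBTB7A replicate 1 (0.118) or siZBTB7A replicate 2 (0.166).

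Among H/ACA members that were not called, SNORA74A had 151 and 168 reads in siNTC and 126 and 108 reads in siZBTB7A, a fold of 0.776 (0.653 to 0.922, adjusted p = 0.0648). Its relative SNORA74D had a fold of 0.642 (0.453 to 0.901, adjusted p = 0.105), and both had lower siZBTB7A tables without overlap. At the other end, SNORA5A (1.176, 0.825 to 1.680), SNORA80A (1.034, 0.761 to 1.406) and SNORA53 (1.026, 0.836 to 1.259) had folds above 1 with intervals that include 1. Within the SNORA80 family the 4 members ran from 0.438 for SNORA80D to 1.443 for SNORA80E, with at most 29 reads in a group for those 2, and the family sum was 0.870 (0.714 to 1.059).

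**Figure D2:**
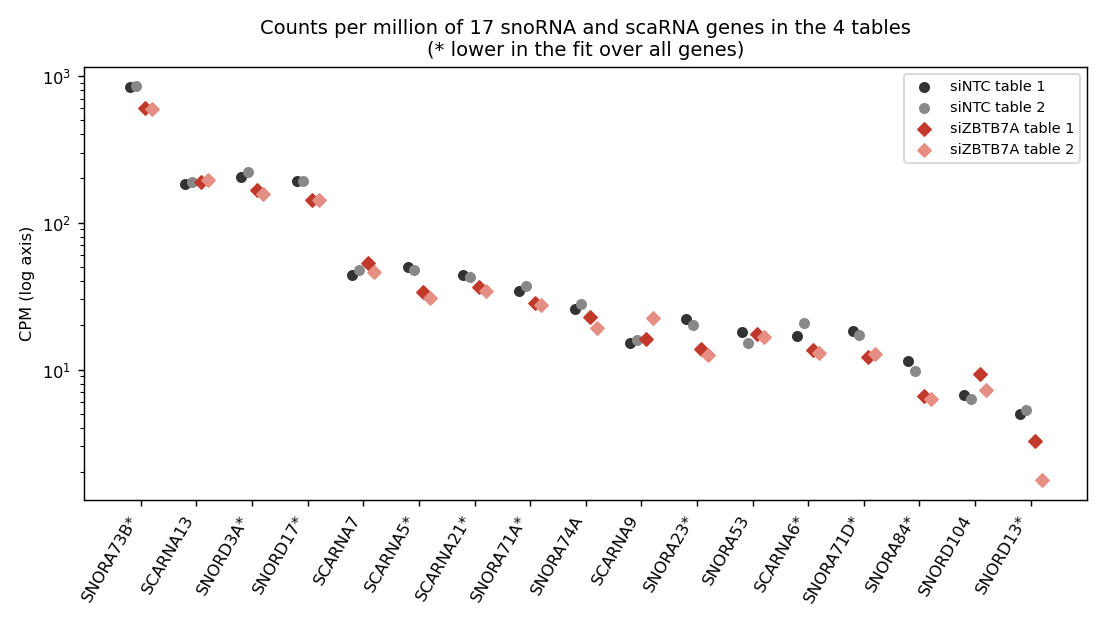
CPM (log axis) of 17 snoRNA and scaRNA genes in each of the 4 tables, ordered by level. Circles are the siNTC tables, diamonds the siZBTB7A tables, and a star marks the 11 genes called lower; their siZBTB7A points lie below both siNTC points, while those of SCARNA13, SCARNA7, SCARNA9 and SNORD104 do not.

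C/D RNAs summed to 487 and 497 CPM in siNTC and 393 and 381 CPM in siZBTB7A, a fold of 0.785 (0.755 to 0.817). Of 15 tested members, 3 were lower (SNORD3A, SNORD17 and SNORD13) and none higher. The median fold of the 21 was 0.882. The sum rests on SNORD3A and SNORD17: the other 19 members together had a fold of 0.926 (0.846 to 1.013), whose interval includes 1.

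SNORD3A (ENSG00000263934, chromosome 17) is U3, the C/D RNA required for the cuts that lead to 18S ribosomal RNA, and it is transcribed from its own promoter. It had 205 and 221 CPM in siNTC and 167 and 156 CPM in siZBTB7A, with no overlap. The fold was 0.761 (0.716 to 0.808), a log2 change of -0.39 ± 0.04 (SE, adjusted p = 3.67e-12). The other 2 measured U3 copies, SNORD3B-1 and SNORD3B-2, had 192 and 83 reads in siNTC and 169 and 69 in siZBTB7A, folds of 0.931 (0.753 to 1.151) and 0.880 (0.630 to 1.226), and were not called. The RNA of SNORD3B-1 differs from that of SNORD3A at 1 position and is identical to that of SNORD3B-2. Reads that fit several places were kept out of gene counts, so reads from the shared sequence may be missing. The annotated genes of SNORD3A, SNORD3B-1 and SNORD3B-2 span 699, 758 and 791 bases, against 217 for the RNA. Their counted reads therefore need not all come from mature U3. Summed, the 3 genes had a fold of 0.776 (0.733 to 0.822).

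SNORD17 (ENSG00000212232, chromosome 20, in SNX5), a methylation guide for 28S ribosomal RNA, had 191 and 192 CPM in siNTC and 143 and 144 CPM in siZBTB7A. The tables of each group lay close together and the groups did not overlap. The fold was 0.749 (0.702 to 0.799), a log2 change of -0.42 ± 0.04 (SE, adjusted p = 1.32e-12). Among the 4067 genes with 1000 reads or more it had rank 10 from the lowest fold and SNORD3A rank 12.

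SNORD13 (chromosome 8), the U13 RNA that helps acetylate 18S ribosomal RNA, is also transcribed from its own promoter. It had 29 and 32 reads in siNTC and 18 and 10 in siZBTB7A, a fold of 0.486 (0.299 to 0.772) and a log2 change of -1.04 ± 0.31 (SE, adjusted p = 0.0333). Without siZBTB7A replicate 2 the log2 change was -0.65 (adjusted p = 0.437), and the call was also lost without siNTC replicate 1 (0.105) or siNTC replicate 2 (0.180). In the unstranded column SNORD13 had 0 reads, so that column gave no value for it. SNORD4A and SNORA72 also had 0 reads there. SNORD118, the U8 RNA that acts in 28S processing, had 0 reads in all 4 tables, which allows up to 3 counted reads, and is not among the members. Reads that fit several genes or places were kept out of gene counts, so this does not show that U8 is absent.

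Other C/D members lay on both sides of 1. SNORD15B, a 28S guide in RPS3, had 80 and 72 reads in siNTC and 56 and 44 reads in siZBTB7A (fold 0.696, 0.535 to 0.902, adjusted p = 0.0818). SNORD104 in SNHG25 had 6.71 and 6.33 CPM against 9.29 and 7.23 CPM, so both siZBTB7A tables were higher, yet the interval of its fold includes 1 (1.264, 0.924 to 1.734, adjusted p = 0.450). SNORD4A in RPL23A, an 18S guide, had overlapping tables and a fold of 1.120 (0.795 to 1.579). The 5 SNORD116 genes of the imprinted chromosome 15 cluster in SNHG14 had 92 reads in siNTC and 83 in siZBTB7A together, a fold of 0.955 (0.701 to 1.299), and their depth cannot show a change of the size seen for SNORD3A.

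Within the C/D class, shorter and longer RNAs had different summed folds. The 13 members under 100 bases had a summed fold of 1.088 (0.951 to 1.244), a median of 1.120 and no call among 7 tested. The 8 members of 100 bases or more had a summed fold of 0.761 (0.730 to 0.793), or 0.809 (0.715 to 0.915) without SNORD3A and SNORD17, and held all 3 calls. Over all classes the 34 members from 100 to under 150 bases had a fold of 0.803 (0.759 to 0.849) with 5 lower, and the 15 of 150 bases or more had 0.774 (0.758 to 0.791) with 6 lower, or 0.846 (0.821 to 0.872) without SNORA73B. The short members had 434 and 446 reads in all, and no test of the difference between length groups was made. The 11 called members ran from 104 to 276 bases (median 182), and the shortest of them, SNORD13, had only 89 reads. The 21 uncalled members with 100 reads or more ran from 70 to 353 bases (median 137). GC content was 46.2% to 64.0% (median 53.2%) in the former and 37.3% to 70.3% (median 50.2%) in the latter. Column extraction and library clean-up recover short RNAs poorly, so levels of RNAs of different length cannot be compared directly. The part of recovery in these folds was not tested.

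**Figure D3:**
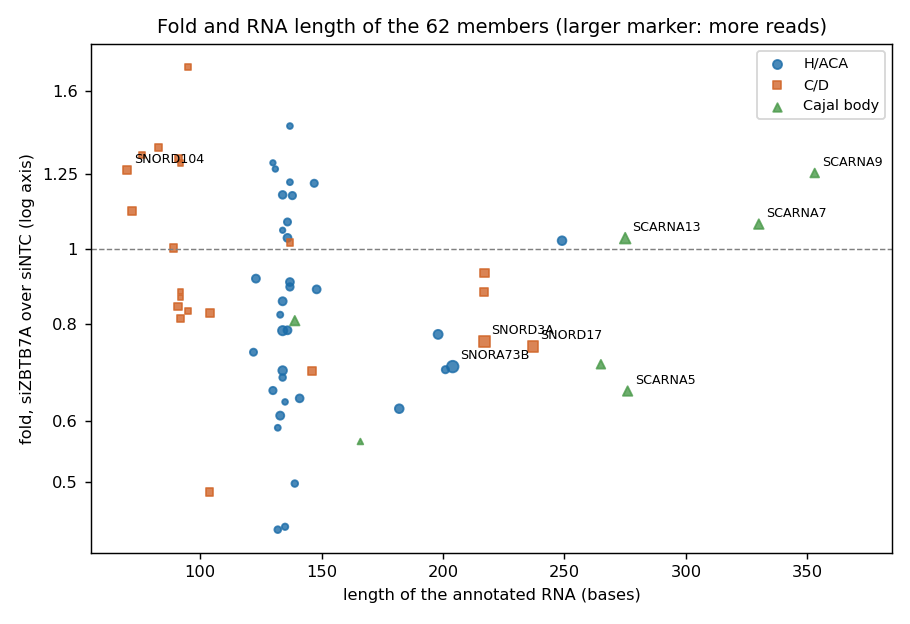
Fold (log axis) against the annotated RNA length in bases for all 62 members, with larger markers for more reads and shape for class. The C/D members under 100 bases lie on both sides of 1, the H/ACA members cluster near 135 bases over a wide range of folds, and the Cajal body RNAs of 275 bases or more lie on both sides of 1.

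Cajal body RNAs were split. Their sum was 356 and 363 CPM in siNTC and 341 and 343 CPM in siZBTB7A, a fold of 0.952 (0.911 to 0.995), and the interval included 1 when siNTC replicate 2 (0.963, 0.912 to 1.016) or either siZBTB7A table was left out. Of 6 tested, 3 were lower (SCARNA5, SCARNA6 and SCARNA21) and none higher, and the median of the 7 was 0.809. SCARNA13 gave 53.9% of the class's reads, and without it the fold was 0.864 (0.810 to 0.922).

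SCARNA5 (ENSG00000252010) and SCARNA6 are composite RNAs with both C/D and H/ACA features, and both lie on chromosome 2 in introns of ATG16L1. SCARNA5 had 49.8 and 47.8 CPM in siNTC and 33.5 and 30.5 CPM in siZBTB7A, a fold of 0.656 (0.573 to 0.750) and a log2 change of -0.61 ± 0.09 (SE, adjusted p = 9.17e-07). SCARNA6 had 16.9 and 20.65 CPM against 13.66 and 13.04 CPM, a fold of 0.710 (0.573 to 0.878, adjusted p = 0.0362). The groups did not overlap for either gene. They are 62.7% identical. SCARNA6 lost its call without siNTC replicate 2 (adjusted p = 0.421), siZBTB7A replicate 1 (0.128) or siZBTB7A replicate 2 (0.225).

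SCARNA21, an H/ACA Cajal body RNA in CHD3 on chromosome 17, had 44.25 and 42.64 CPM in siNTC and 36.26 and 34.02 CPM in siZBTB7A without overlap (fold 0.809, 0.707 to 0.924, adjusted p = 0.0392), and its call was lost when any 1 table was left out (adjusted p up to 0.290). SCARNA13, in SNHG10 on chromosome 14, had 184 and 188 CPM in siNTC and 188 and 196 CPM in siZBTB7A, a fold of 1.034 (0.974 to 1.097, adjusted p = 0.624). At a depth like that of SNORD3A and SNORD17, its interval does not reach their folds. In the unstranded column SCARNA13 had 1686 reads, against 4345 on the main strand. SCARNA7, a methylation guide for U1 spliceosomal RNA in KPNA4, had 44.1 and 47.3 CPM against 52.8 and 45.8 CPM, which overlapped (1.078, 0.955 to 1.216). SCARNA9, a guide for U2 spliceosomal RNA in CEP295, had 15.2 and 15.8 CPM against 16.2 and 22.6 CPM and the only interval above 1 among the members (1.255, 1.026 to 1.536, adjusted p = 0.205).

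The intronic members, whose counts can include reads of unspliced host RNA, could be set beside their host genes. Where several genes of GENCODE 29 span a member on its strand, the one with the most reads in these data was taken as the host. In this way 58 members were placed in 45 host genes, 37 in protein-coding and 21 in noncoding hosts, and 4 had none (SNORD3A, SNORD3B-1, SNORD3B-2 and SNORD13). Other genes, with fewer reads, also span 4 of the members: RCC1 (SNORA73B), OVOL2 (SNORD17) and MATR3 (SNORA74A and SNORA74D). They are left out of the host counts. All 45 hosts were tested. Of these, 5 were higher (among them SLC25A3, RPL30, RPL3 and RPL27A) and 1 was lower (SNHG3). Among all tested genes, 2.25% were higher and 2.72% lower. The median fold of the hosts was 1.034. Members in coding hosts summed to a fold of 0.819 (0.789 to 0.850), members in noncoding hosts to 0.771 (0.751 to 0.791), and the 4 without a host to 0.770 (0.727 to 0.815). Each sum leans on its deepest member. It was 0.858 (0.819 to 0.899) for coding hosts without SNORD17, 0.945 (0.902 to 0.991) for noncoding hosts without SNORA73B, which gave 70.0% of that sum, and 0.838 (0.711 to 0.987) for the 3 members with no host other than SNORD3A, which gave 87.8%.

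For 28 members with 100 reads or more in both member and host (23 hosts), the median fold was 0.835 for the members and 1.027 for the hosts. The member's fold was below that of its host in 21 of the 28. For 6 members (SNORD17, SCARNA5, SCARNA6, SNORA23, SNORA84 and SNORD15B) the interval lay wholly below the host's, and for SCARNA9 it lay above (CEP295 fold 0.900, 0.823 to 0.984). SNX5, the host of SNORD17, had a fold of 1.082 (1.008 to 1.161) and was not called, and OVOL2, which also spans it, had 0.961 (0.775 to 1.191). ATG16L1, which holds SCARNA5 and SCARNA6, had 390 and 380 reads and a fold of 1.031 (0.893 to 1.191), and IPO7 and IARS, which hold SNORA23 and SNORA84, had folds of 0.947 and 1.010. Across the 28 pairs, which share hosts and libraries, Pearson's r of the log2 folds was -0.108, given as a description.

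SNHG3, the one host called lower, holds SNORA73B. It went from 16815 to 11835 reads (fold 0.745, 0.727 to 0.763, adjusted p = 6.52e-44). In GENCODE 29 an exon of SNHG3 contains the other U17 gene, SNORA73A, whose identifier did not match the tables, so reads of SNORA73A can fall in the count of SNHG3. The share of such reads was not tested. RCC1, a coding gene that also spans SNORA73B, had 2209 and 2104 reads and was not called (fold 1.008, 0.949 to 1.070). The comparison of SNORA73B with its host therefore differs with the gene taken. SNHG17, the host of the SNORA71 genes, had a fold of 1.008 (0.852 to 1.192).

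**Figure D4:**
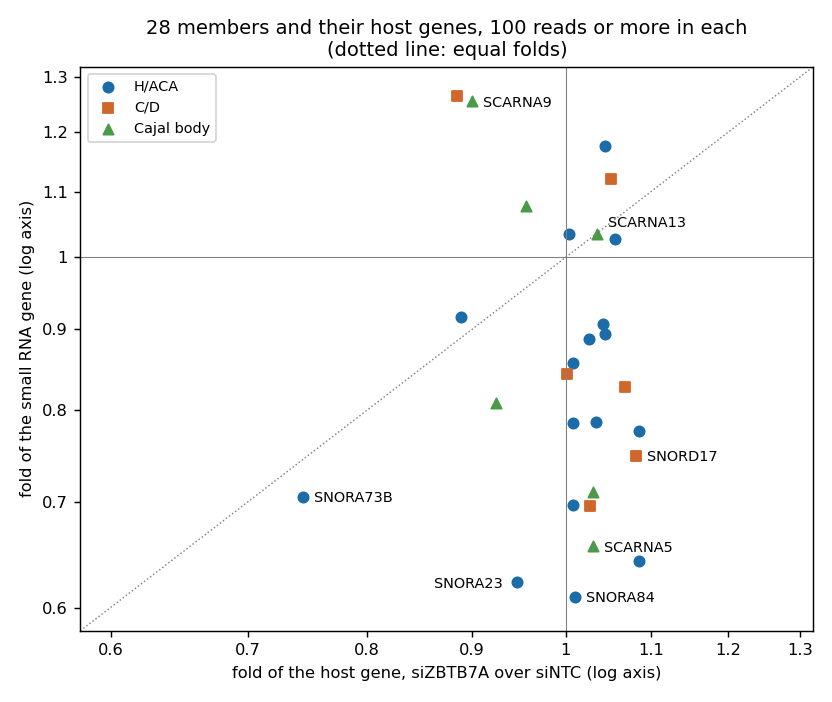
Fold of 28 snoRNA and scaRNA genes (vertical, log axis) against the fold of the host gene (horizontal, log axis), siZBTB7A over siNTC, for pairs with 100 reads or more in each. The dotted line marks equal folds; 21 of the 28 points lie under it, and SNORA73B is the one point with a host fold near 0.745.

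The proteins that bind, assemble and trim these RNAs were measured at the messenger level. None of the 30 genes was called in edgeR's test, with 2 higher and 3 lower at an unadjusted p under 0.05. The share of all genes at that limit is not given here. With limma-voom none was called either, DESeq2 called none of the 15 to which it gave an adjusted p, and scaling by gene-read totals called 2 lower. The median fold of the 30 genes was 1.008, with a range from 0.870 to 1.235. The 8 core proteins had a median of 1.022: among those of C/D particles, the methyltransferase FBL was at 0.951 (0.856 to 1.057), NOP56 at 1.036, NOP58 at 0.921 and SNU13 at 1.007. Among those of H/ACA particles, the pseudouridine synthase DKC1 was at 1.035 (0.957 to 1.119), NHP2 at 1.076, NOP10 at 1.083 and GAR1, with 84 reads in all, at 1.009. The 13 assembly and Cajal body factors had a median of 1.011, and only RUVBL2, a helicase of the assembly complex, had an interval off 1 (0.905, 0.838 to 0.978). The Cajal body scaffold COIL was at 1.014 and WRAP53, which brings scaRNAs to Cajal bodies, at 1.058. The 9 maturation factors had a median of 0.917, and 6 of them had folds below 1. Intervals lay below 1 for the intron-binding helicase AQR (0.908, 0.842 to 0.979) and the exosome helicase MTREX (0.908, 0.827 to 0.996). The interval lay above 1 for the 5′ nuclease XRN2 (1.070, 1.002 to 1.144), and the lariat debranching enzyme DBR1 was at 1.235 (0.987 to 1.546). Among all genes with 20 reads or more, 7.93% had an interval below 1 and 8.02% above 1. The intervals off 1 are therefore not read as a result about these factors.

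Reads on the opposite strand do not enter these values. Over all 62 members they numbered 37, which is 0.0928% of the members' main-strand reads, and 52 members had none. In GENCODE 29, 6 members share exon bases with another gene on the same strand, and 21 have a copy at least 90% identical. Their counts are uncertain to that extent, since reads that fit several genes or places were kept out of gene counts.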

How the data were processed

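RNA-seq was measured in 4 tables, 2 for siNTC and 2 for siZBTB7A. The authors deposited raw read counts per gene in STAR's layout, not normalized. The submitters' processing notes name STAR 2.4.2a with hg19 and GRCh37. The release of the annotation is not given in the sources used. GENCODE 29, on another build, gave gene names for 55698 identifiers (4610 were not matched), hosts, RNA lengths and sequences, so no coordinates are printed. The main-strand column exceeded the other by 24.9 to 25.5 times and was used. Rows that name no gene (50.8% to 51.2% of reads) were left out of library sizes.

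The test was edgeR 4.0.16 in R 4.3.3 (quasi-likelihood, robust, filterByExpr, TMM factors, group only) over all genes, at an adjusted p under 0.05. CPM and folds use TMM-adjusted totals of the summed tables, with exact Clopper-Pearson 95% intervals. PCR duplicates could not be told apart, so intervals cover counting error only. The labels do not say that the tables are separate cultures. On simulated data (12827 genes, 200 changed 1.5-fold) the test recovered 169 with 2 false calls. The simulated counts held counting error only, so variation between cultures is not covered. The changed genes had 200 summed reads or more, and the members' median was 102 reads, so the recovery does not apply to most members. Sequences and copies were compared with edlib 1.3.9.post1, and tables and plots were made in Python 3.11.15 (pandas 2.3.3, scipy 1.17.1, numpy 2.4.6, matplotlib 3.10.9).

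The members and gene lists were chosen with earlier results of these data known. The genes named are ZBTB7A, every called member, the 12 highest per kilobase, the 8 highest and 8 lowest folds among members with 100 reads or more, Cajal body RNAs of that depth, U3, U8 and U13, the genes at the depth limit, called genes of the lists, and hosts of these; 1 host gene is not reported here. Other members, list genes and TERC were named as examples after their values were seen. Alternatives were DESeq2 1.42.0 size factors and test, limma-voom (limma 3.58.1), gene-read and protein-coding totals, other count filters, unstranded counts, the replicate block and leaving out each table. Class, length and host sums without their deepest members were added after the data were seen.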

Additional observations from a re-analysis of the deposited data

Results flagged for a closer look

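Reads that met no annotated exon lie outside the gene counts, and their share was higher in the siZBTB7A tables than in the control tables. They made up 23.15% of all reads in siZBTB7A (23.132% to 23.166%) and 20.59% in siNTC (20.578% to 20.611%), with intervals that cover counting error only. Each group counts as 1 library, so this difference has no replicate check, and what these reads are was not tested.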

How the results depend on the processing

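Of the 11 members called lower, SNORA73B, SNORD3A, SNORD17, SCARNA5 and SNORA23 passed the test with any 1 table left out, and the other 6 lost it without at least 1 table, none changing sign. Leaving out 1 table, which leaves fewer reads, gave 5 to 7 called members and 303 to 373 called genes; the lone table is then assumed to vary like the other group's. DESeq2 called 105 genes (48 higher, 57 lower; 3016 had an adjusted p) and 3 members. With no filter on low counts 7 members were called, as more genes were tested. Gene-read totals gave 750 genes (171 higher, 579 lower) and 2 lower snoRNP and assembly genes, shifting the median log2 fold of all genes by -0.036. Summed folds moved to 0.806 for H/ACA without SNORA73B, 0.926 for C/D without SNORD3A and SNORD17 and 0.864 for Cajal body RNAs without SCARNA13. Deviations of same-numbered tables had r = -0.008 over 4067 genes. As the tables of a group agreed within sampling noise, this value cannot show whether same-numbered tables are paired. The replicate block gave 654 called genes and 11 members. The members' median log2 fold lay between -0.287 and -0.123 over all alternatives. Depth limits the 31 members under 100 reads, whose intervals are wide.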
